A study of Coturnix japonica with 19 samples.

Results

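The nuclear genes of oxidative phosphorylation were followed in the pituitary gland of Japanese quail. Genes were taken by symbol: every symbol beginning with NDUF, UQCR, ATP5 or COX4 to COX8, plus SDHA, SDHB, SDHC, SDHD and CYC1. Of 19562 gene symbols in the table, 81 met this rule. They comprised 35 subunits of complex I, 9 complex I assembly factors, 4 subunits of complex II, 8 of complex III, 8 of complex IV, 16 of complex V and the coupling factor B gene ATP5S. CYC1 was not among the symbols listed. The study asked how age and photoperiod shape the pituitary transcriptome. RNA of 1 gland per bird was sequenced as full-length cDNA on an Oxford Nanopore instrument, in 19 birds.

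All birds began under long days. Adult males were 5 weeks old at the start, spent 2 weeks under long days and were then moved to short days. The 8L adults (8 h light per day, n = 5) were taken after 8 weeks, and the 16L adults (16 h light, n = 5) were transferred to long days and taken after 8 weeks more, so in adults photoperiod cannot be told apart from light history and age. Juveniles were kept under long days for 5 days, then under 16L (n = 4) or 8L (n = 5) for 5 days, and were taken on posthatch day 10. Juveniles were of either sex and adults were all male, so age and sex are partly confounded. The pars tuberalis was left with the brain and was not part of the gland sampled. No genotype, strain or agent distinguished the groups.

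Oxidative phosphorylation takes place in the inner mitochondrial membrane. Complex I accepts electrons from NADH and complex II from succinate. Complex III passes them to cytochrome c and complex IV to oxygen, and the proton gradient built on the way drives complex V, the ATP synthase. Most subunits are encoded in the nucleus, and the endocrine cells of the pituitary use the ATP for hormone synthesis and exocytosis. Subunits encoded by mitochondrial DNA were not analysed here.

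Library totals ranged from 90599 to 4796665 estimated counts, and 5 libraries held fewer than 200000, 4 of them juvenile. One count was worth 0.24 CPM (counts per 1000000 of the library total times its TMM scaling factor) in the deepest library and 8.61 CPM in a juvenile library with 91030 counts. The 12 endocrine pituitary markers found in the table were counted in all 4 groups, with summed levels of 47163 to 74028 CPM in 16L adults, 17283 to 40855 in 8L adults, 57014 to 92500 in 16L juveniles and 3056 to 60222 in 8L juveniles. Every 16L adult was above every 8L adult in this sum. The lowest 2 values, 3056 and 9294 CPM, were in 8L juvenile replicates 1 and 5, whose 10 osteoblast and osteocyte markers summed to 13786 and 13334 CPM against 24.8 to 50.3 CPM in the 10 adults. The symbols IBSP, DMP1 and SP7 from that list had no count in any adult. In whole glands, fewer cells of a type and less RNA per cell cannot be told apart.

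The 81 genes took 127051 counts over the 19 libraries, or 0.283% to 1.17% of a library. Of these genes 61 were counted in every library, and 9 had fewer than 200 counts in all. The counts were deposited per transcript and were summed per symbol. Among the 32 genes with several transcripts, 16 had a lowest transcript with at least 90% of the counts of the leading one, and for ATP5H, ATP5J, COX7A2 and NDUFA8 both transcripts had equal totals. A read may therefore have been counted on several transcripts of its gene. Counts on the leading transcripts alone summed to 84938. Levels are compared between birds and groups for 1 gene or 1 complex at a time, and not between genes.

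Summed over all 81 genes, the 4 groups differed by less than the birds within them. Adult 16L birds had 7203, 4852, 8246, 9164 and 8209 CPM (replicates 1 to 5). Adult 8L birds had 5322, 4905, 6974, 4374 and 9487 CPM. Juvenile 16L birds had 6974, 6176, 8342 and 7065 CPM, and juvenile 8L birds had 7250, 9580, 5962, 8033 and 10017 CPM. All 4 groups overlapped. The group means were 7535 ± 1653 CPM (SD, n = 5) in 16L adults, 6212 ± 2073 (n = 5) in 8L adults, 7140 ± 896 (n = 4) in 16L juveniles and 8168 ± 1669 (n = 5) in 8L juveniles. The log2 ratio of 16L juveniles to 16L adults was -0.08 with TMM scaling, 0.22 with RLE factors and 0.62 with upper-quartile factors, so the direction of this difference depended on the scaling.

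**Figure D1:**
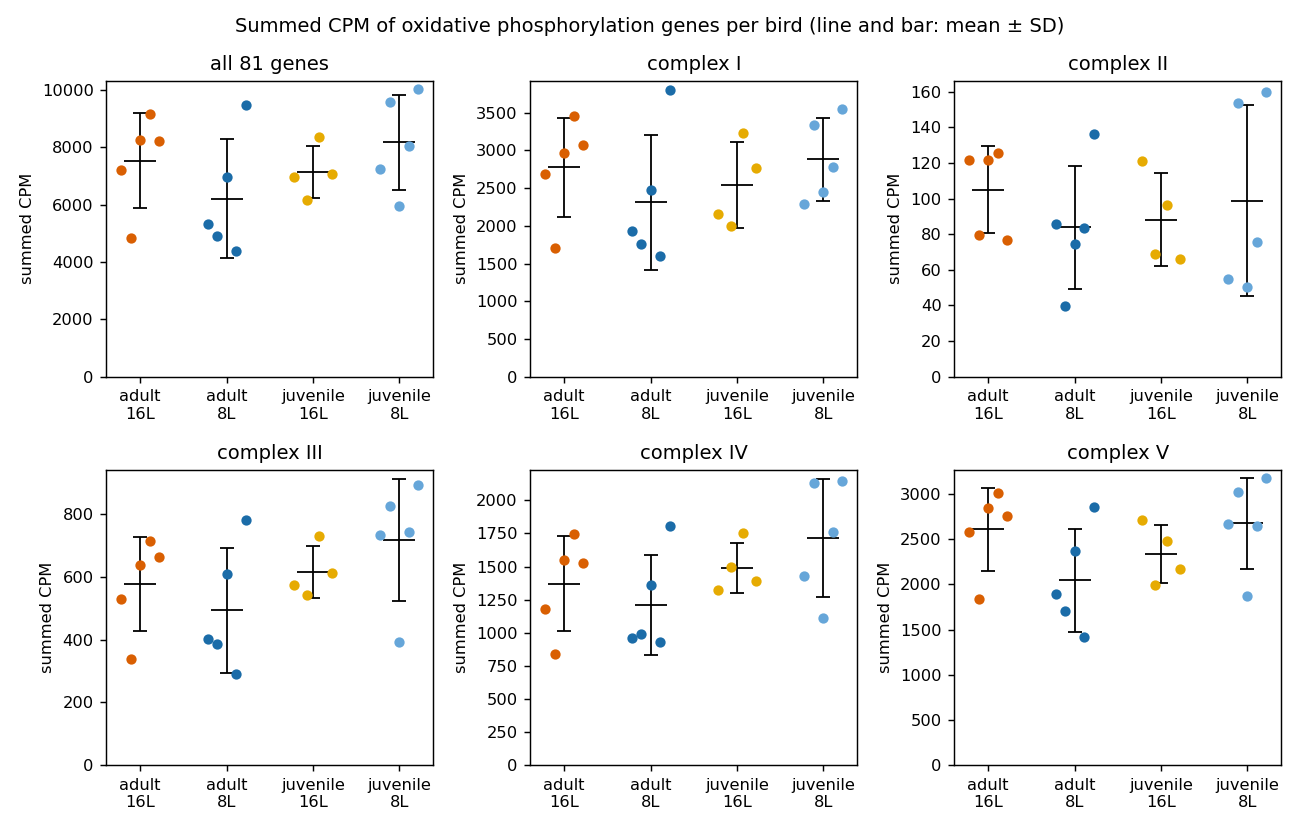
Summed CPM of all 81 genes and of complexes I to V in each bird, by group, with the group mean and SD as a line and bar. The birds of the 4 groups overlap in every panel, and the whole set runs from 4374 to 10017 CPM.

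The shares of complexes I, III, IV and V varied less between birds than the total did. Each share is a part of that total, and no other gene set was divided in this way for comparison. The highest total was 2.29 times the lowest, whereas the share of complex I in that total varied by 1.33 times, of complex III by 1.53, of complex IV by 1.48 and of complex V by 1.31. The less counted sets varied more, with 2.52 times for the share of complex II and 5.04 times for that of the complex I assembly factors. Complex I, where NADH is oxidised, made up 30.9% to 40.9% of the counts of the 81 genes. Complex V made up 29.7% to 38.9%, complex IV 16.4% to 24.3%, complex III 6.58% to 10.1% and complex II 0.754% to 1.9%. The shares depend on how many transcripts a gene has: on leading transcripts complex III took 9.48% to 14.7% and complex IV 13.5% to 18.8%. The share of complex III was 6.98% to 8.08% in 16L adults and 8.21% to 8.79% in 16L juveniles, which did not overlap, and 6.65% to 8.72% in 8L adults and 6.58% to 10.1% in 8L juveniles, which did. The shares of complexes I, II, IV and V overlapped between 16L adults and 16L juveniles. So did the summed CPM of complex III, at 339 to 712 and 543 to 730. Of all 6641 genes tested between these groups, 9.16% had CPM that stayed apart, 36 of them higher and 572 lower in juveniles. These are CPM of single genes, so they do not tell how often a share of a sum stands apart. On leading transcripts, which come from the same libraries, the 16L ranges for complex III also stood apart, at 10.2% to 12% in adults and 12.2% to 13.2% in juveniles.

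Complex I was measured by 35 genes. The 7 core subunits, which carry the flavin and the iron-sulfur clusters, together took 1.12% to 4.21% of the counts of the set, and the 28 other subunits took the rest of the complex I share. NDUFB1, NDUFB2 and NDUFB3, small subunits of the membrane arm, had the most counts of the complex when summed over transcripts. This order did not hold on leading transcripts. There they had 1821, 1973 and 980 counts, below the 2012 of NDUFA4, which has 1 transcript. NDUFB1 averaged 434 ± 111 CPM (SD, n = 5) in 16L adults, 338 ± 199 (n = 5) in 8L adults, 331 ± 179 (n = 4) in 16L juveniles and 472 ± 148 (n = 5) in 8L juveniles. NDUFB2 averaged 348 ± 76 CPM, 247 ± 134, 343 ± 185 and 316 ± 121 in the same order, and NDUFB3 308 ± 92.9, 272 ± 111, 305 ± 39 and 280 ± 27.6 CPM. All 3 have several transcripts, so these CPM are sums in which a read may count more than once. The 9 assembly factors, which help build complex I without staying in it, summed to 22.7 to 117 CPM per bird. NDUFAF2 had 502 counts over all libraries and the other 8 had 38 to 236.

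Complex II, succinate dehydrogenase, had 4 genes. Its flavoprotein SDHA averaged 40.4 ± 13.2 CPM (SD, n = 5) in 16L adults, 36.5 ± 7.53 (n = 5) in 8L adults, 41.5 ± 11.8 (n = 4) in 16L juveniles and 31.4 ± 10.5 (n = 5) in 8L juveniles. The iron-sulfur subunit SDHB averaged 36.2 ± 11.4, 29.3 ± 20.9, 33.6 ± 13.8 and 36.3 ± 23 CPM in that order. The membrane anchors were thinly counted. SDHD averaged 19.9 ± 4.86, 11 ± 7.52, 12.2 ± 4.9 and 19.7 ± 13.3 CPM. SDHC had 167 counts in all and was listed at 0 in 9 birds, so no level could be set for it at this depth. The complex II sum ranged from 39.7 to 160 CPM and overlapped between all groups.

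Among the 8 genes of complex III, the small subunits UQCRQ and UQCR11 and the hinge-like UQCRHL had the most counts. UQCRQ averaged 172 ± 44.4 CPM (SD, n = 5) in 16L adults, 133 ± 48 (n = 5) in 8L adults, 178 ± 18.9 (n = 4) in 16L juveniles and 187 ± 34.9 (n = 5) in 8L juveniles. UQCR11 averaged 126 ± 45.8, 120 ± 68.7, 119 ± 43.1 and 166 ± 44 CPM in that order, and UQCRHL 75.3 ± 20.8, 63.6 ± 37.6, 83.1 ± 34.7 and 74.9 ± 42.9 CPM. The Rieske iron-sulfur protein UQCRFS1, which carries electrons towards cytochrome c, averaged 19.7 ± 10.1, 22.9 ± 10.4, 30 ± 15.4 and 30.2 ± 13.6 CPM.

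Complex IV was represented by 8 genes, among them single members of gene pairs that in mammals have a widely expressed and a tissue-restricted form. COX4I1 averaged 377 ± 88 CPM (SD, n = 5) in 16L adults, 374 ± 91.2 (n = 5) in 8L adults, 437 ± 106 (n = 4) in 16L juveniles and 483 ± 205 (n = 5) in 8L juveniles. COX6A1, the widely expressed form of subunit 6A, averaged 317 ± 80.1, 251 ± 154, 312 ± 67.8 and 368 ± 180 CPM in that order. The partner forms COX4I2, COX6A2 and COX7A1 were not analysed here. COX7A2L, known in mammals for joining complexes III and IV into supercomplexes, averaged 55.9 ± 16, 73.6 ± 38.4, 46.6 ± 18 and 65.3 ± 23.6 CPM.

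For complex V, 6 genes encode F1, the catalytic head with its central shaft, and 10 encode the proton-carrying ring, outer stalk and membrane parts. The gamma subunit of the central shaft, ATP5C1, averaged 435 ± 68.1 CPM (SD, n = 5) in 16L adults, 359 ± 96.3 (n = 5) in 8L adults, 388 ± 162 (n = 4) in 16L juveniles and 429 ± 116 (n = 5) in 8L juveniles. The proton-carrying c ring is made from 3 genes with the same mature protein in mammals. Of these ATP5G1 averaged 511 ± 128, 348 ± 109, 501 ± 60.9 and 626 ± 142 CPM in the same order of groups, ATP5G3 234 ± 27.2, 184 ± 68, 215 ± 71.1 and 231 ± 82.8 CPM, and ATP5G2 52.5 ± 12.5, 47.4 ± 21, 59.3 ± 12.4 and 45.5 ± 28 CPM. The stalk subunit d, ATP5H, averaged 239 ± 48.4, 236 ± 93.5, 189 ± 122 and 260 ± 64 CPM. The catalytic beta subunit ATP5B had only 331 counts in the 19 birds and averaged 16.2 ± 5.51, 16.5 ± 15.2, 17.4 ± 5.8 and 23.3 ± 14.6 CPM.

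In each adult group, 1 bird held the highest or the lowest value for most genes of the set. Of the 74 genes that passed the filter on low counts over all libraries, 59 (79.7%) had their lowest value among 16L adults in replicate 2, against 31.3% of all 7165 genes tested. In 8L adults, replicate 5 was the highest bird for 57 of the 74 genes (77%), against 23.8% of all genes. The same birds stood out for other housekeeping sets. Replicate 2 of the 16L adults was the lowest for 88.4% of cytoplasmic ribosomal protein genes and 78.8% of mitochondrial ribosomal protein genes, and replicate 5 of the 8L adults the highest for 66.7% and 59.6%. That 16L adult library had a TMM factor of 0.584, next to factors of 0.868 to 1.11 in its group. Other birds stood closer to all genes, to varying degrees. In 16L adults, replicate 4 was the highest for 43.2% of members against 17.5% of all genes. In 8L adults, replicate 4 was the lowest for 36.5% against 15%. Replicate 2 of the 8L adults was the lowest for 47.3% of members against 55.6% of all genes. In 16L juveniles, replicate 2 was the lowest for 43.2% against 44.3%, and replicate 3 the highest for 40.5% against 32.1%. In 8L juveniles, replicate 3 was the lowest for 45.9% against 22.8%, and replicate 5 the highest for 43.2% against 26.9%. The part of library composition in these patterns was not tested.

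**Figure D2:**
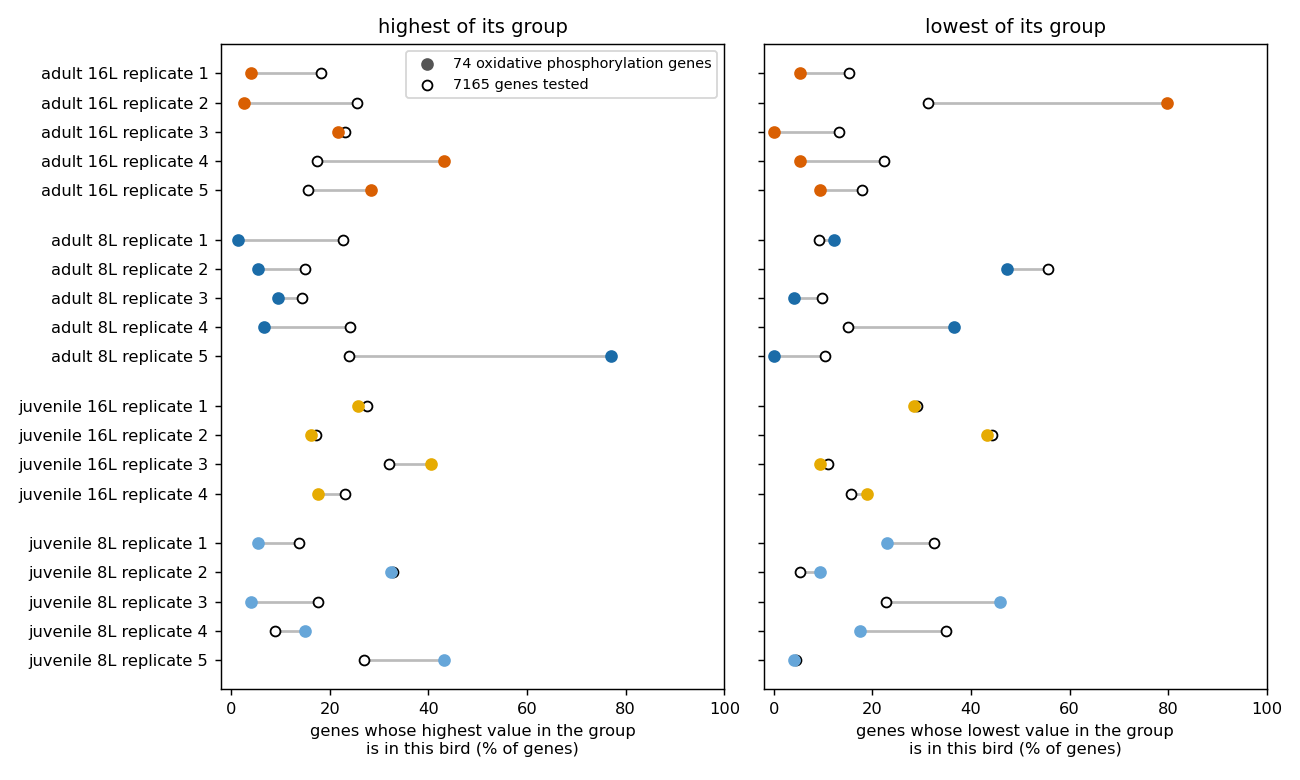
For each bird, the percentage of the 74 oxidative phosphorylation genes tested (filled) and of all 7165 genes tested (open) whose highest (left) or lowest (right) value of the group lay in that bird. Adult 16L replicate 2 stands out on the right at 79.7% against 31.3%, and adult 8L replicate 5 on the left at 77% against 23.8%.

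Photoperiod in adults was tested with edgeR's quasi-likelihood test on the 5 birds of 16L and the 5 of 8L, with Benjamini-Hochberg adjustment over all genes tested. None of the 74 members tested was called at an adjusted p under 0.05, where 0.0267% of all 7478 genes were (2 genes). DESeq2 and limma-voom called none of them either. At an unadjusted p under 0.01 no member was counted (0.669% of all genes), none at p under 0.05 (3.18%), and for none did the 2 groups stay apart (0.923%). The log2 fold change of 16L over 8L was positive for 51 of 74 members, with a median of 0.15 beside 0.02 for all genes. The endocrine marker sum also lay higher in every 16L adult (47163 to 74028 CPM) than in every 8L adult (17283 to 40855 CPM), and its part in these differences was not tested.

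NDUFA1, a small subunit needed for complex I assembly in mammals, had the smallest p in adults. Its CPM were 88.6, 82.2, 127, 185 and 129 in the 16L birds and 62.6, 68, 107, 19.9 and 75 in the 8L birds. The groups overlapped through 8L replicate 3, and the log2 fold change was 0.79 (SE 0.39, adjusted p = 0.999, edgeR). ATP5L, the g subunit of the ATP synthase, had 127, 120, 160, 178 and 136 CPM under 16L and 93.8, 73.7, 118, 39.8 and 141 under 8L, with a log2 fold change of 0.55 (SE 0.32, adjusted p = 0.999). NDUFAF2 and ATP5G1 followed at 0.63 and 0.47. The lower side was led by COX7A2L (-0.50), NDUFS5 (-0.53) and NDUFS4 (-0.29), all with adjusted p of 0.999. The median of the members relative to all genes was 0.14, and it ranged from 0.01 without 8L replicate 4 to 0.33 without 8L replicate 5, the bird highest for most members.

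In juveniles, photoperiod had been changed for 5 days. Only 47 members passed the filter, none of them a core subunit of complex I or an assembly factor. None was called (0% of 2405 genes), by edgeR, DESeq2 or limma-voom. None was at p under 0.01 (0.125% of genes) or under 0.05 (1.7%), and none had groups that stayed apart (1.16%). Among members that did not pass the filter, NDUFS3 and NDUFV2 were lower in every 16L juvenile, on 0 to 7 counts in each 16L library. The share of all genes below the filter that stayed apart was not taken, so nothing is read from NDUFS3 and NDUFV2 here. The log2 fold change of 16L over 8L was positive for 22 and negative for 25 members, with a median of -0.05 beside -0.04 for all genes. The smallest p belonged to UQCRB of complex III, at -0.57 (SE 0.47, adjusted p = 0.999), with 58.5, 43.1, 72.5 and 51.5 CPM under 16L and 116, 107, 42.2, 60.6 and 127 under 8L. COX7A2 (-0.46), UQCR11 (-0.42) and NDUFV3 (-0.54) came next on the lower side, and NDUFA2 (0.54), SDHA (0.47), ATP5G2 (0.50) and ATP5D (0.34) on the higher side, all with adjusted p of 0.999.

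Juveniles were compared with adults under each photoperiod and over both. Here the fitted differences of all genes were centred below 0, with a median of -0.16 under 16L, -0.09 under 8L and -0.16 over both. The members lay above these medians. Under 16L, 48 of 72 members had a positive log2 fold change of juveniles over adults, with a median of 0.20. Under 8L it was 58 of 68, with a median of 0.44, and over both photoperiods 61 of 74, with a median of 0.30. Against the median of all genes this made 0.36, 0.53 and 0.46. In these 3 comparisons the members' median stayed above that of all genes in every alternative run, although with no filter on low counts it was -0.06 itself under 16L.

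**Figure D3:**
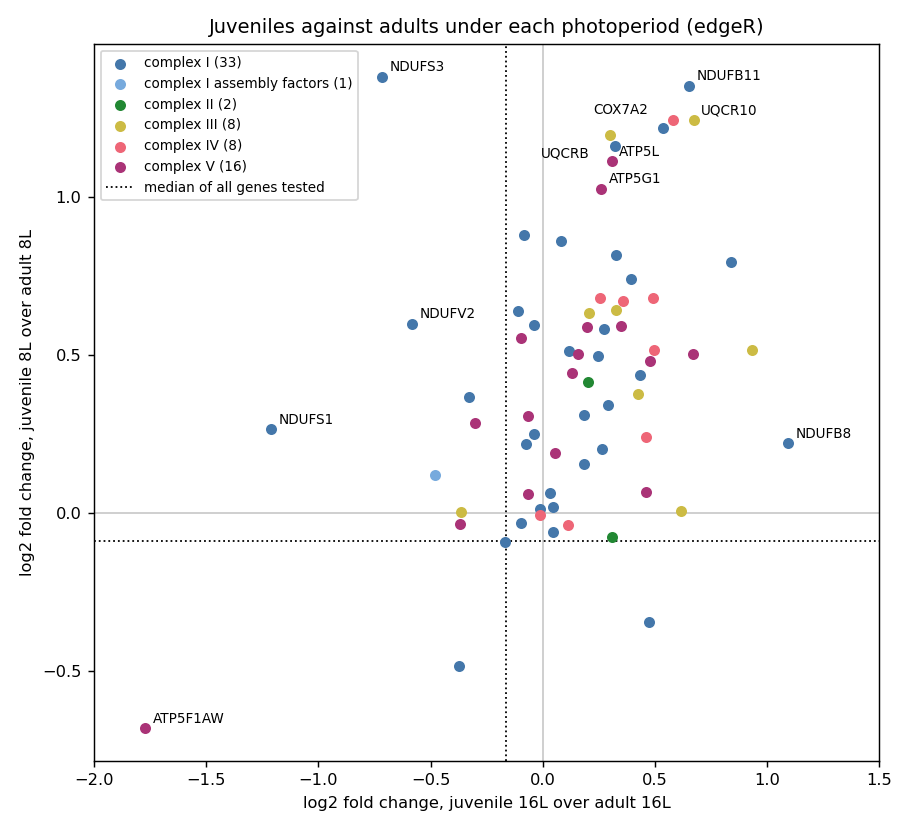
The log2 fold change of juveniles over adults under 16L (x axis) and under 8L (y axis) for the 68 members tested in both, coloured by complex, with the medians of all genes tested as dotted lines. Most points lie above and to the right of the dotted lines, and ATP5F1AW lies far to the left at -1.77 under 16L.

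The other housekeeping sets, ribosomal proteins of both kinds and proteasome subunits, lay above the all-gene median under both photoperiods as well. Under 8L the median log2 fold change was 0.52 for cytoplasmic ribosomal proteins, 0.24 for mitochondrial ribosomal proteins and 0.28 for proteasome subunits, next to 0.44 for the members. Under 16L these were -0.04, 0.25 and 0.08, next to 0.20. By complex, the 8L medians were 0.37 for complex I, 0.57 for complex III, 0.59 for complex IV and 0.46 for complex V. All 8 complex III genes were positive under 8L. The 16L medians were 0.12, 0.38, 0.41 and 0.14 for the same complexes. Complex II, with 2 to 3 genes tested, had 0.17 under 8L and 0.20 under 16L. The log2 ratios of summed CPM under 16L were -0.13 for complex I, -0.25 for II, 0.09 for III, 0.12 for IV and -0.16 for V. For complexes I, II and V the direction under 16L therefore depended on the measure. Under 8L these ratios were 0.32, 0.24, 0.54, 0.51 and 0.39, all positive like the medians.

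With edgeR on counts summed per gene, no member was called at an adjusted p under 0.05 between juveniles and adults in these 3 comparisons. Of all genes, 1.31% were called under 16L, 0.157% under 8L and 1.95% over both photoperiods. DESeq2 called 2 members under 8L (NDUFB11 and UQCRB) and 6 over both photoperiods (those 2 with ATP5G1, ATP5L, COX7A2 and UQCR10), and none under 16L. Limma-voom called NDUFB11 alone, over both photoperiods. All of these were higher in juveniles.

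Under 16L, no member reached p under 0.01 (4.28% of all genes), 1 reached p under 0.05 (9.82%), and for the same 1 gene the groups stayed apart (9.16%). This was ATP5F1AW, described below. The next smallest p belonged to NDUFB8, a membrane-arm subunit of complex I, at 1.09 (SE 0.55, adjusted p = 0.567). It had 11.3, 5.06, 33.1, 14.8 and 15.4 CPM in adults and 16.7, 34.5, 32.2 and 33.1 in juveniles. NDUFS6 of the peripheral arm (0.84), UQCRFS1 (0.93) and UQCR10 (0.67) followed on the higher side. On the lower side were NDUFS1 (-1.21), ATP5S (-1.11) and NDUFS3 (-0.71), with 0 to 12 counts in each juvenile library. Their groups overlapped.

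Under 8L, 9 members were at p under 0.05 (13.2% of 68, against 8.5% of all genes), all higher in juveniles, and none at p under 0.01 (2.1%). Of all genes at p under 0.05, 211 were higher and 223 lower in juveniles. The 9 were NDUFB11, NDUFA1, NDUFA4 and NDUFS3 by symbol in complex I, UQCR10 and UQCRB in complex III, COX7A2 in complex IV, and ATP5G1 and ATP5L in complex V. Their adjusted p ranged from 0.518 to 0.57. For 3 members, COX7A2, NDUFB11 and ATP5G1, all juveniles lay above all adults (4.41%), and for none below. Of all 5106 genes 3.19% stayed apart in either direction, 26 of them higher and 137 lower in juveniles. The count of 9 fell to 2 without adult replicate 4, 3 without adult replicate 1 and 4 without juvenile replicate 1, and was 4 without the bone-rich juvenile replicates 1 and 5. It was 1 with no filter on low counts, where all 81 members were tested, and that gene was lower in juveniles. With a replicate block it was 0, although the replicate numbers did not pair the birds. The median of the members relative to all genes was 0.54 without those 2 juveniles. The endocrine marker sum was 3056 to 60222 CPM in these juveniles and 17283 to 40855 CPM in the adults, which overlapped, and its part was not tested.

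NDUFB11, an accessory subunit of the membrane arm of complex I, had 16.8, 17, 23.1, 7.46 and 21.9 CPM in 8L adults and 30.8, 50.8, 37.9, 45.4 and 33 in 8L juveniles. Every juvenile was above every adult, and the log2 fold change was 1.35 (SE 0.48, adjusted p = 0.518, edgeR). In the 16L birds it had 21, 11.4, 28.3, 31.6 and 23 CPM in adults and 29.3, 25.8, 34.9 and 29.4 in juveniles, with overlap and a log2 fold change of 0.65 (SE 0.44). The level rested on 3 to 56 counts per juvenile library.

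COX7A2, the widely expressed form of subunit 7A of cytochrome oxidase, had 163, 227, 213, 104 and 283 CPM in 8L adults and 369, 294, 363, 575 and 457 in 8L juveniles. The groups stayed apart, narrowly between adult replicate 5 and juvenile replicate 2, and the log2 fold change was 1.25 (SE 0.44, adjusted p = 0.518, edgeR). Under 16L adults had 209, 121, 244, 314 and 314 CPM and juveniles 267, 258, 360 and 302, with a log2 fold change of 0.58 (SE 0.36).

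ATP5G1, a gene of the c ring, had 357, 312, 470, 185 and 415 CPM in 8L adults and 656, 810, 476, 697 and 490 in 8L juveniles, a log2 fold change of 1.03 (SE 0.39, adjusted p = 0.518, edgeR). Under 16L adults had 536, 306, 652, 565 and 496 CPM and juveniles 552, 413, 510 and 530. Here the groups lay on top of each other. ATP5L had 93.8, 73.7, 118, 39.8 and 141 CPM in 8L adults and 185, 226, 97, 167 and 236 in 8L juveniles, a log2 fold change of 1.11 (SE 0.45), with juvenile replicate 3 among the adults.

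UQCR10, a small subunit of complex III, had 49.2, 56.7, 72.8, 33.6 and 75.8 CPM in 8L adults and 181, 108, 54.8, 136 and 122 in 8L juveniles. Juvenile replicate 3 alone lay among the adults, and the log2 fold change was 1.25 (SE 0.48, adjusted p = 0.52, edgeR). In 16L birds it had 47.3, 51.8, 81.2, 86.4 and 80.2 CPM in adults and 109, 86.1, 124 and 47.8 in juveniles. UQCRB, a subunit linked to quinone binding, had 30.1, 39.7, 55.9, 32.3 and 59.7 CPM in 8L adults and 116, 107, 42.2, 60.6 and 127 in 8L juveniles, a log2 fold change of 1.20 (SE 0.48).

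NDUFA4, named as a complex I subunit and now placed with complex IV in mammals, had 107, 147, 103, 52.2 and 103 CPM in 8L adults and 301, 82.6, 118, 257 and 295 in 8L juveniles, a log2 fold change of 1.22 (SE 0.52). Its 3 highest juveniles were replicates 1, 4 and 5. NDUFA1 had 62.6, 68, 107, 19.9 and 75 CPM in 8L adults and 92.3, 252, 110, 129 and 94 in 8L juveniles (1.16, SE 0.51). The core subunit NDUFS3, with 214 counts in all, had 11, 17, 2.66, 3.73 and 20.4 CPM in 8L adults and 37.6, 19.1, 25.3, 22.7 and 17.8 in 8L juveniles (1.38, SE 0.63). On the lower side, the smallest p under 8L belonged to ATP5F1AW (-0.68), NDUFS4 (-0.48), NDUFV1 (-0.35) and NDUFA12 (-0.09), with adjusted p of 0.798 to 0.984.

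**Figure D4:**
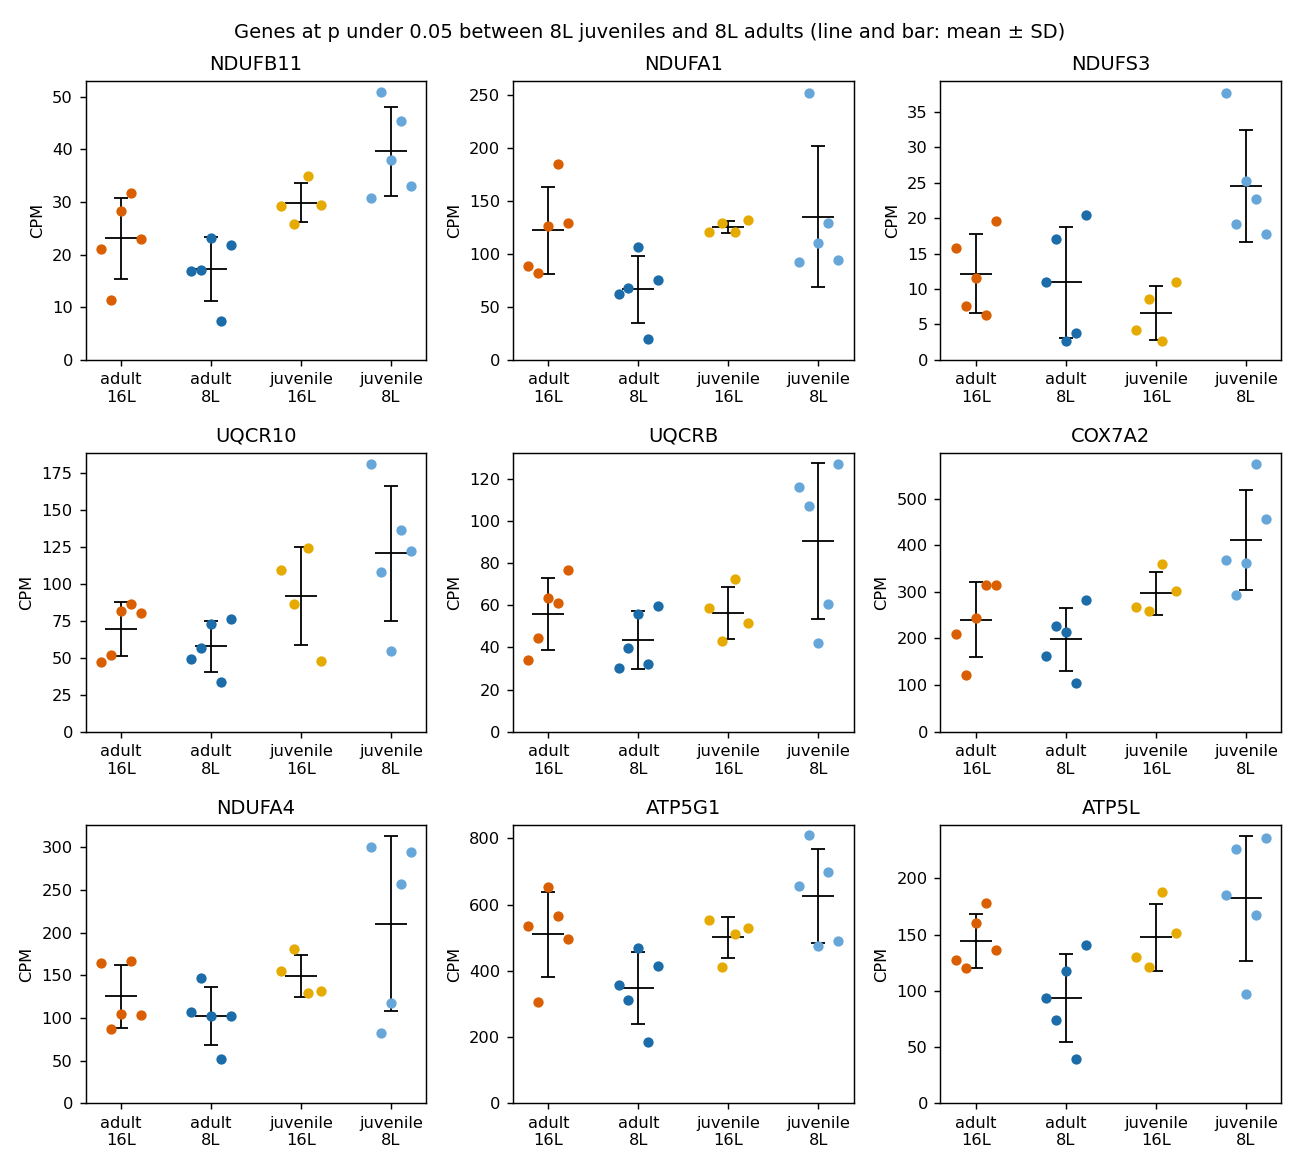
CPM per bird of the 9 members at p under 0.05 between 8L juveniles and 8L adults, by group, with mean and SD as a line and bar. Juvenile 8L birds lie above adult 8L birds without overlap for NDUFB11, COX7A2 and ATP5G1, and overlap them for the other 6 genes.

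Over both photoperiods, with photoperiod in the model and all 19 birds, 4 members were at p under 0.01 (5.41% of 74, against 5.33% of all genes) and 11 at p under 0.05 (14.9%, against 13.1%). Both shares were near those of all genes with the directions pooled, but the directions differed. At p under 0.05, 10 members were higher and 1 lower in juveniles, against 340 and 596 of all genes. At p under 0.01 these were 3 and 1, against 160 and 222. NDUFB11 was 1.02 higher in juveniles on the log2 scale (SE 0.30, adjusted p = 0.0971, edgeR), COX7A2 0.93 (SE 0.28, adjusted p = 0.107) and UQCR10 0.97 (SE 0.31, adjusted p = 0.128). ATP5F1AW was at -1.14 (SE 0.39, adjusted p = 0.177). The other 7 at p under 0.05 were all positive and were NDUFA4, ATP5L, NDUFS6, ATP5G1, UQCRB, NDUFA1 and COX6C, at 0.59 to 0.90. After ATP5F1AW the lower side held NDUFS4 (-0.44), NDUFS1 (-0.40) and ATP5J2 (-0.20). The count at p under 0.05 was 19 with DESeq2 (18 higher) and 17 without 8L adult replicate 5 (16 higher). It fell to 8 without the libraries under 200000 counts (6 higher) and 8 without 8L juvenile replicates 1 and 5 (7 higher). With no filter on low counts it was 3 (2 higher). On leading transcripts NDUFB11 (adjusted p = 0.024) and UQCR10 (adjusted p = 0.0454) were called, in a test of 5425 genes in place of 7165, although each has a single transcript.

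Osteoblast and connective tissue markers were higher in every juvenile than in every adult, while cartilage and blood markers overlapped between the ages. The 10 osteoblast and osteocyte markers found summed to 110 to 4145 CPM in 16L juveniles and 112 to 13786 in 8L juveniles, above the 24.8 to 50.3 CPM of adults. The 7 connective tissue markers summed to 451 to 1011 CPM in 16L juveniles and 430 to 4967 in 8L juveniles, and to 124 to 292 CPM in adults. The 13 cartilage markers found summed to 36.8 to 362 CPM, 76.2 to 5979 CPM and 22.8 to 74.2 CPM in the same order, so that the ages overlapped under 16L and stood apart under 8L. The cartilage collagens COL2A1 and COL9A1 had no count in adults or 16L juveniles. The 8 red blood cell markers summed to 1008 to 6080 CPM and 1358 to 12696 CPM in the same juveniles, and to 584 to 2393 CPM in adults. The 10 leukocyte markers summed to 0 to 34.5 CPM in 16L juveniles and 12.6 to 188 in 8L juveniles, and to 0 to 2223 CPM in adults, and CSF1R, LCP1 and CTSS had no count in 16L juveniles. Their part in the differences of the members was not tested. Without the bone-rich 8L juvenile replicates 1 and 5, 1 member stayed at p under 0.01 over both photoperiods, NDUFB11. The members' median relative to all genes was 0.45 against 0.46 with them. In this run and in the one under 8L, every juvenile kept still had more osteoblast marker CPM than any adult. Neither run can therefore separate age from bone content.

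Averaged over ages, photoperiod gave no member called (0.014% of all genes, 1 gene), none at p under 0.01 (0.377%) and none at p under 0.05 (3.18%). DESeq2 and limma-voom called none. The core subunit NDUFV2 had the smallest p, at -0.75 (SE 0.37, adjusted p = 1, edgeR), with 32.3, 13.9, 45.4, 29.5 and 32.4 CPM in 16L adults and 24.9, 22.7, 29.3, 53.5 and 45.9 in 8L adults. Juveniles had 29.3, 0, 18.8 and 14.7 CPM under 16L and 37.6, 39.9, 54.8, 53 and 53.3 under 8L. The groups overlapped in adults and stood apart in juveniles, on 7, 0, 7 and 4 counts in the 16L libraries. In juveniles NDUFV2 did not pass the filter on low counts. The 1.16% of genes given for juveniles covers only genes that did. The median of the members was 0.07 beside -0.03 for all genes.

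The interaction asked whether the photoperiod difference was the same in juveniles and adults. None of the 74 members was called (0% of all genes), and DESeq2 and limma-voom called none. None was at p under 0.01 (1.19%) and 1 at p under 0.05 (5.74%). This was NDUFS3, at -2.09 (SE 0.94, adjusted p = 0.826, edgeR): it had 15.8, 7.59, 11.5, 6.32 and 19.6 CPM in 16L adults and 4.18, 8.61, 2.68 and 11 in 16L juveniles, beside the 8L values above. The interaction was negative for 56 of 74 members, with a median of -0.33, and for all 69 cytoplasmic ribosomal protein genes, with a median of -0.64. All genes had a median of -0.14. The difference of the members from it was -0.19, and 0.02 with no filter on low counts. NDUFV2 (-1.20), SDHD (-1.33) and ATP5G1 (-0.78) followed on the lower side, and NDUFV1 (0.81), NDUFB8 (0.88) and NDUFS5 (0.80) were on the higher side.

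The alpha subunit of the F1 head was listed as 2 genes, ATP5F1AZ and ATP5F1AW. In birds the W chromosome is carried by females only. The Z and W copies are alike in sequence, so their reads may not be separable and the values of each are uncertain. ATP5F1AW had 36.8, 45.5, 29.1, 17.9 and 27.3 CPM in 16L adults and 4.18, 0, 10.7 and 11 in 16L juveniles. The groups stayed apart, on 0 to 4 counts per juvenile library, with a log2 fold change of -1.77 (SE 0.60, adjusted p = 0.253, edgeR). Under 8L adults had 33.6, 45.4, 26.6, 21.1 and 25.5 CPM and juveniles 20.5, 24.5, 8.43, 22.7 and 7.62. ATP5F1AZ averaged 92.1 ± 17 CPM (SD, n = 5) in 16L adults, 63.4 ± 30.2 (n = 5) in 8L adults, 73.3 ± 47.9 (n = 4) in 16L juveniles and 58.7 ± 30.8 (n = 5) in 8L juveniles.

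ATP5F1AW was counted in all 10 adult males, while HINTW, a W-linked gene of female birds, had no count in any of them. Males carry no W chromosome, so in these adults the counts under ATP5F1AW do not measure a W copy. The age differences under this symbol can therefore not be read as differences of a W copy. The part of a W copy in the juveniles with HINTW counts was not tested. The W-named copy took 22.8% of the counts of both copies in 16L adults (exact 95% interval 20.4% to 25.4%, counting error only), 27.8% in 8L adults (24% to 31.8%), 11.1% in 16L juveniles (4.92% to 20.7%) and 24% in 8L juveniles (17.8% to 31.1%). ATP5F1AW was summed over 3 transcripts, with 303 of its 452 counts on the leading one, and ATP5F1AZ had 1 transcript. Where a read was counted on several transcripts, the W-named share is too high and the intervals are too narrow. HINTW was counted in 3 juveniles, 16L replicates 3 and 4 and 8L replicate 2. In those birds the W-named copy took 16.7% (4.74% to 37.4%), 42.9% (9.9% to 81.6%) and 31% (21.5% to 41.9%). The first and last of these intervals did not reach that of 8L adult replicate 2 (44.4% to 97.5%, on 8 and 2 counts), and otherwise all 3 overlapped the intervals of the adult males. In juveniles without HINTW counts the W-named copy took 3.57% and 0% in 16L replicates 1 and 2. It took 20%, 40%, 30% and 7.69% in 8L replicates 1, 3, 4 and 5. These shares rested on 0 to 6 W-named counts per library. The sex listed by the study and the HINTW counts differed for 2 of the 4 16L juveniles. The runs on listed males follow the listed sex. They keep 16L juvenile replicate 3, which had HINTW counts, and leave out 16L juvenile replicate 2, which had none.

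**Figure D5:**
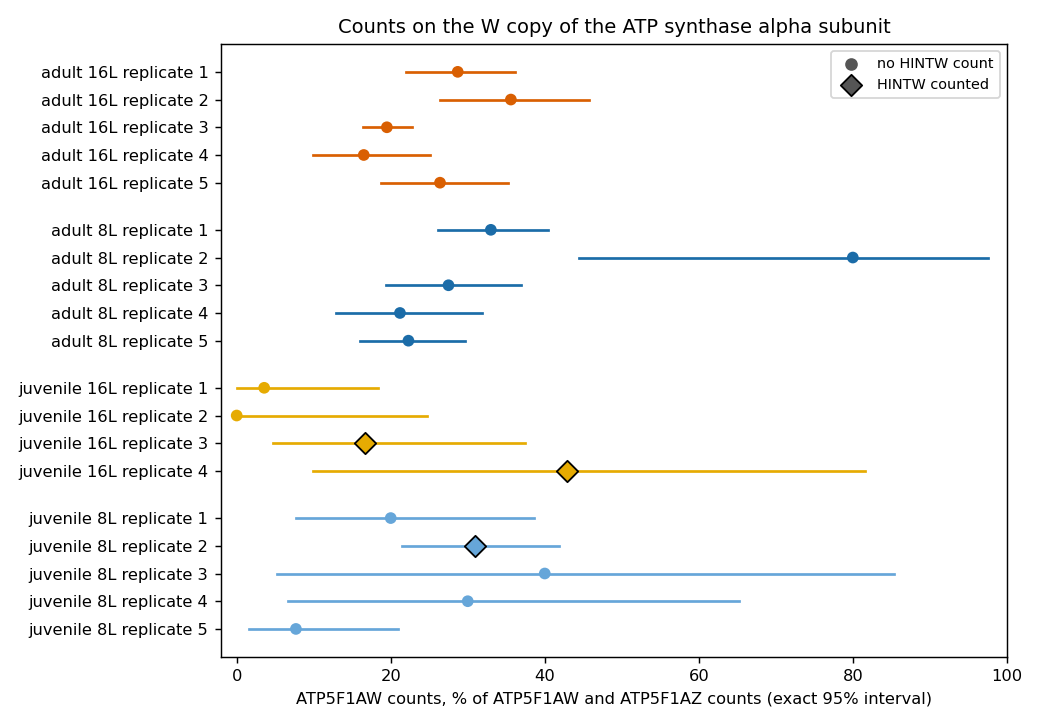
Counts on ATP5F1AW as a percentage of the counts on ATP5F1AW and ATP5F1AZ in each bird, with exact 95% intervals that cover counting error only. Diamonds mark the 3 juveniles with HINTW counts. The W-named copy was counted in every adult male, at 16.5% to 80%, the last on 10 counts.

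Other genes of mitochondrial energy metabolism were read from the same fits. Of 33 assembly factors and partners outside the rule tested in adults, none was called for photoperiod, and of 29 tested over both photoperiods none was called for age. The closest was CYCS, cytochrome c, the carrier between complexes III and IV. It averaged 121 ± 33.4 CPM (SD, n = 5) in 16L adults, 109 ± 41.2 (n = 5) in 8L adults, 171 ± 39.1 (n = 4) in 16L juveniles and 207 ± 74.2 (n = 5) in 8L juveniles, with a log2 fold change of 0.92 over both photoperiods (SE 0.26, adjusted p = 0.0712, edgeR). SDHAF2, which helps attach flavin to SDHA, was at 0.71 (SE 0.26, adjusted p = 0.214). Of the regulators of mitochondrial biogenesis 5 were tested for age over both photoperiods, with 2 positive and a median of -0.23, and TFB1M, which modifies mitochondrial ribosomal RNA, was at -1.65 (SE 0.70, adjusted p = 0.299). The 11 genes of the citric acid cycle and pyruvate dehydrogenase tested had a median of 0.03 and the 11 glycolytic genes 0.26, beside 0.30 for the members, and no gene of either list was called.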

How the data were processed

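The authors sequenced 19 pituitary libraries by Nanopore PCR-cDNA sequencing. Per the labels and the study's methods, reads were trimmed, aligned with minimap2 and quantified with Salmon, and versions were not given in the sources used here. The deposited values are estimated counts per transcript, not normalized. Gene symbols are those deposited with the counts. Of 63260 transcript accessions 0 were in the quail annotation at hand, so no coordinates are given, and 46 of the 81 member symbols were in it. Estimated counts were summed per gene symbol and rounded. Members and gene lists were chosen with earlier results of these data known.

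Each comparison was fitted across all genes with edgeR 4.0.16 (R 4.3.3; filterByExpr with a minimum count of 10 and minimum total of 15, TMM, quasi-likelihood test, Benjamini-Hochberg), on the birds of the compared groups, or all 19 birds for age, photoperiod and their interaction. The scripts were tested on simulated data. DESeq2 1.42.0 and limma-voom (limma 3.58.1) were alternatives, with other scaling, filters, a replicate block, libraries left out, listed males only and, chosen after seeing the data, leading transcripts. Each library came from 1 bird.

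Of the members, 44 were named by rule: those with the smallest p in each comparison (4 in each direction), the 3 with most counts per complex, and a fixed list of succinate dehydrogenase subunits, UQCRFS1 and paralogues, plus members in which 1 bird stood apart. Membership of the Z chromosome was not used. One member that the rule names is not reported here. ATP5B, COX6C, NDUFA8, ATP5H and ATP5J as examples of counts or transcripts, and members in counts at p under 0.05, were named after their values were seen. Intervals are exact 95% binomial and take each count as 1 read. Figures were drawn with matplotlib 3.10.9.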

Additional observations from a re-analysis of the deposited data

Results flagged for a closer look

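The check covered the named members, the sums of complexes I to V and the sum of all members, each in every group. In 200 such groups of 4 or 5 birds, 1 bird stood apart from the others by Dixon's 95% criterion in 9, or 4.5%. Chance gives about 5%. All 9 were single members and none was a sum. In 16L adult replicate 2, the bird that was the lowest for most members, NDUFB2 was at 216 CPM (the next bird at 364), NDUFAF2 at 22.8 CPM (35.8) and UQCRC1, a core protein of complex III, at 10.1 CPM (26.7). In 8L juvenile replicate 2, a bird with HINTW counts, NDUFA1 was at 252 CPM (129) and NDUFA12 at 109 CPM (60.9). The other 4 rested on few counts: NDUFB8 at 16.7 CPM in 16L juvenile replicate 1 (4 counts, the next bird at 32.2), NDUFS1 at 0 CPM in 8L juvenile replicate 4 (21.8), SDHC at 0 CPM in 16L adult replicate 5 (9.36), and SDHC at 3.68 CPM in 16L juvenile replicate 4 (1 count, the others at 0).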

How the results depend on the processing

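With edgeR on counts summed per gene, no member was called in any comparison. For age over both photoperiods, the members called were 6 with DESeq2, 1 with limma-voom and 2 with edgeR on leading transcripts. For age under 8L they were 2 with DESeq2. All other settings called 0. Against 4 members at p under 0.01 for age over both photoperiods, DESeq2 gave 11, upper-quartile factors 9, limma-voom 8, the stricter filter 7, leading transcripts 7, listed males only 2, and no filter, leaving out libraries under 200000 counts and leaving out 8L juvenile replicates 1 and 5 1 each. Leaving out 1 bird at a time gave 2 to 5. Against 0 under 8L, DESeq2 and a fit of all 4 groups gave 6, leading transcripts 5, limma-voom and the stricter filter 2, and listed males and libraries over 200000 counts 1 (leaving out 1 bird 0 to 1). Against 0 under 16L, DESeq2, no filter, libraries over 200000 counts, listed males and the fit of all 4 groups gave 1 (leaving out 1 bird 0 to 1). For the interaction, libraries over 200000 counts gave 1 (leaving out 1 bird 0 to 1). The log2 ratio of summed CPM, juveniles over adults, moved from -0.08 to 0.22 (RLE) and 0.62 (upper-quartile) under 16L and from 0.40 to 0.86 (upper-quartile) under 8L. The cause was not tested. The members' median kept its side of the all-gene median in the 3 age comparisons and between adult groups in every alternative run, and in the juvenile photoperiod comparison it did not, at -0.13 to 0.14 relative to all genes when 1 bird was left out.

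The replicate numbers did not pair the birds: deviations of same-numbered birds correlated at -0.10 to 0.09. With the replicate block no member was called, and 2 were at p under 0.01 for age over both photoperiods against 4 without it.

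Depth limits the juvenile values: 1 count was worth up to 8.61 CPM, and 47 of 81 members were tested between juvenile groups.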
